A study of Arabidopsis thaliana with 24 samples.

Results

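The difference between interfascicular tissue and surrounding stem in their change between 2 and 5 days on auxin was measured in 12 of the 24 arrays of the series. The 4 groups, chosen by their labels alone and with 3 arrays each, were cambium at 5 days, starch sheath at 2 days, stem tissue at 5 days and stem tissue at 2 days. All came from wild-type Arabidopsis thaliana, and the stem fragments behind all 12 arrays had been cultured with NAA, a synthetic auxin. No untreated array and no array of tissue kept on MS medium without NAA entered the contrast. Inflorescence stem pieces of 1.5 cm, taken 2.5 cm above the base, had stood on split plates, and only the central 3 mm, which had not touched the medium, were sectioned at 5 µm for laser capture. The value studied is an interaction: the interfascicular change (cambium at 5 days minus starch sheath at 2 days) minus the stem change (stem tissue at 5 days minus stem tissue at 2 days), on the log2 scale. The same number is the cambium-to-stem difference at 5 days minus the sheath-to-stem difference at 2 days. A positive interaction means a larger increase, or a smaller decrease, in the interfascicular region.

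What was captured differs between the tissues in 1 respect that limits the contrast. The interfascicular samples carry the label starch sheath at 2 days, before divisions, and the label cambium at 5 days, after the cambium had formed, so time and captured cell type cannot be told apart there. The stem samples carry 1 label at both times: stem without the starch sheath and without the vascular bundles. The sources used here do not say how many plants lie behind a replicate. In such bulk samples, fewer cells of a type and less RNA per cell cannot be told apart.

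The vascular cambium is a ring of dividing cells that gives off xylem towards the centre of the stem and phloem towards the outside. Between the bundles it does not exist at first and forms from differentiated cells, for which auxin is a known cue; the starch sheath, the stem's endodermis, carries starch-filled plastids that sense gravity and lies where this cambium arises. Pectin methylesterases, which recur below, strip methyl groups from the pectin of the cell wall and so alter its stiffness, and the low-oxygen response is a small set of plant genes switched on together by group VII ERF transcription factors when cells run short of oxygen.

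The deposited values have a median of 3.09 over all probe sets and arrays, and the table holds no detection calls, so a difference from a group near or below that median depends on the floor of the deposited values. Within the 4 groups the SD of an array's values was between 1.22 and 1.54, and replicates correlated at 0.917 to 0.972 over probe sets. Replicate 3 of cambium at 5 days had the narrowest spread, with 1233 probe sets above 6, against up to 2189 on the others. The difference between 3' and 5' probe sets of GAPDH, often read as a sign of RNA length after amplification, was between 6.07 and 7.29 on these arrays. The 5' probe set stood at 2.51 to 2.90, below the median of 3.09 on all of them. The difference thus depends on the floor and cannot rank these arrays by RNA length.

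Marker levels only partly separated the captured tissues. The mean of 7 starch sheath genes lay at 3.44 to 3.90 in cambium at 5 days and at 4.13 to 4.93 in starch sheath at 2 days, against 3.48 to 3.71 in stem at 5 days and 4.02 to 4.16 in stem at 2 days. It was thus lower at 5 days in both tissues, and at 2 days the sheath and stem ranges overlapped. The mean of 8 cambium and vascular regulators was 4.30 to 5.05 in cambium at 5 days and 3.75 to 4.52 in starch sheath at 2 days, against 4.24 to 4.79 in stem at 5 days and 3.71 to 4.25 in stem at 2 days. These ranges overlapped between cambium and stem at 5 days. Phloem genes, 7 measured, averaged 3.80 to 4.10 in cambium at 5 days and 3.45 to 3.66 in starch sheath at 2 days, against 3.95 to 4.30 in stem at 5 days and 3.15 to 3.51 in stem at 2 days, and 5 epidermis genes lay at 4.59 to 5.35 on all 12 arrays. The part of other cell types in the changes below was not tested.

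Of 22746 probe sets, 2 had an interaction with a limma adjusted p under 0.05, both positive, which is 0.00879% of those tested. An adjusted p under 0.05 is what "called" means here, and "rose" and "fell" are kept for called changes. At an unadjusted p under 0.05 there were 584 probe sets, or 2.57%, of which 380 were positive and 204 negative. The median SE of the interaction was 0.30, against 0.21 for a change within 1 tissue. Arrays left out 1 at a time gave between 0 and 22 called interactions. There were none without replicate 2 of starch sheath at 2 days (632 with unadjusted p under 0.05 in limma), without its replicate 3 (506), or without replicate 2 of cambium at 5 days (527). There were 22 without replicate 1 of cambium at 5 days, 7 without its replicate 3, 3 without replicate 1 of starch sheath at 2 days, and 4 each without replicate 3 of stem at 2 days or replicate 1 of stem at 5 days. A single call was left without replicate 1 of stem at 2 days.

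Within the tissues more probe sets changed. The interfascicular change was called for 460 probe sets (2.02%), 270 higher at 5 days (1.19%) and 190 lower (0.835%). The stem change was called for 195 (0.857%), 118 higher (0.519%) and 77 lower (0.339%). At an unadjusted p under 0.05 in limma, 1197 were higher and 1457 lower in the interfascicular region, and 809 and 1176 in stem. With only the 12 arrays in the fit, 275 were called higher and 370 lower in the interfascicular region, and 120 and 165 in stem. Which direction had more calls thus depended on the fit. Without replicate 3 of starch sheath at 2 days the interfascicular count was 197, without its replicate 1 it was 286, and without replicate 2 of cambium at 5 days it was 250. The stem count was 98 without replicate 1 of stem at 2 days, 102 without replicate 2 of stem at 5 days and 106 without its replicate 3. A change within a tissue is estimated from the arrays of that tissue alone. Leaving out an array of the other tissue keeps its size and alters only the pooled spread. A call that holds with many of the 12 arrays left out can thus still be lost without most arrays of its own tissue.

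The changes of the tissues share no arrays, but their 2-day baselines were related. Same-numbered starch sheath and stem arrays at 2 days deviated alike from their group means (r 0.13, 0.51 and 0.33). What this adds to the likeness of the changes was not tested. Both changes ran mostly the same way. They correlated over all probe sets with a Pearson r of 0.70 and a Spearman rho of 0.56, a description across probe sets, which are not independent of each other. A change was called in both tissues for 83 probe sets, 57 higher and 26 lower at 5 days, and in the same direction for all 83. That is 18.0% of the interfascicular calls and 42.6% of the stem calls. Under the 23 other ways of processing, among them each array left out, between 45 and 497 probe sets were called in both, again all in the same direction; the count was 45 without replicate 1 of stem at 2 days, 47 without replicate 2 or replicate 3 of stem at 5 days, 52 without replicate 3 of stem at 2 days and 55 without replicate 3 of starch sheath at 2 days. The estimate had the same sign in the other tissue for 444 of the 460 interfascicular calls and for 189 of the 195 stem calls. How many of all probe sets had the same sign in both tissues was not counted. An unadjusted interaction p under 0.05 in limma was found for 169 of the interfascicular calls and 85 of the stem calls, 2 and 1 of which passed adjustment. Over all probe sets the share was 2.57%. These calls were picked by a change that is itself part of the interaction, so the counts describe them and test nothing.

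How alike the changes were could be bounded for some probe sets. Over all probe sets, the 95% interval of the interaction lay within 1 log2 unit either way for 14476, or 63.6%. Among the 83 called in both tissues it did so for 18, and the median size of their interaction was 0.36. For the other 65 of the 83 the intervals reach past a 2-fold difference between the changes, so equal changes were not shown.

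**Figure D1:**
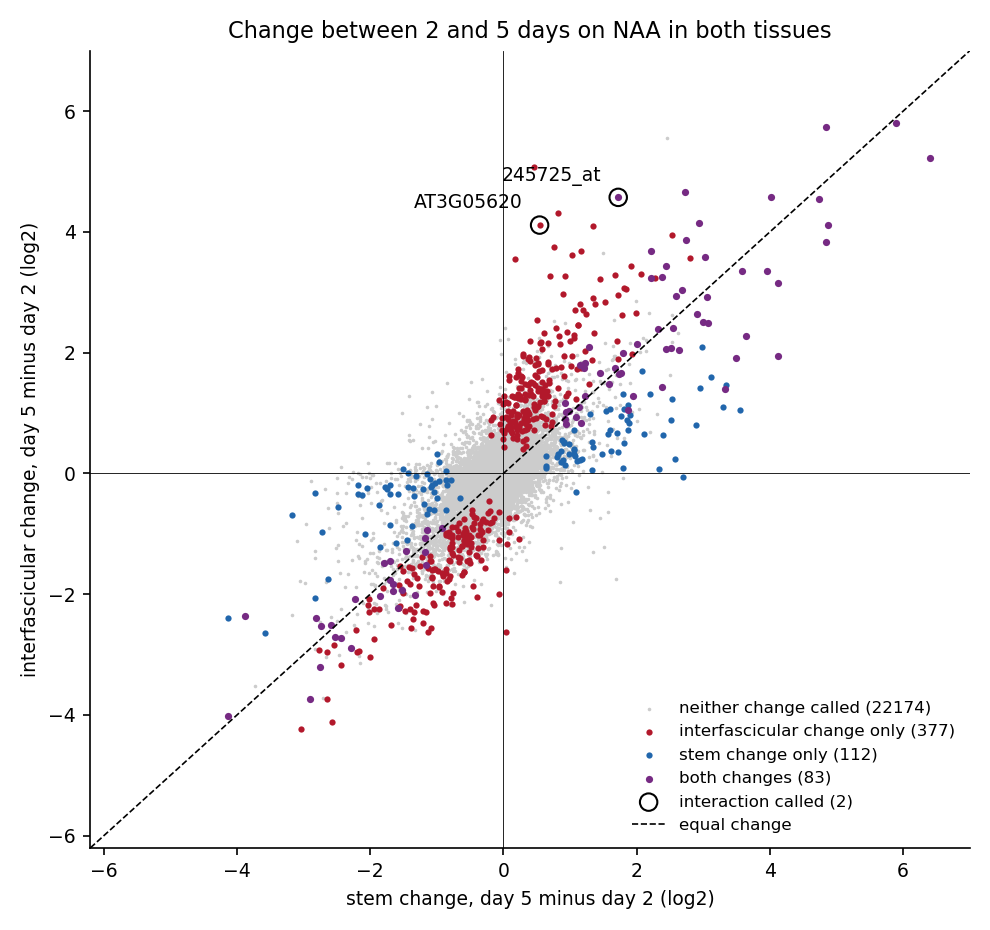
Each point is a probe set, with its stem change (horizontal) and its interfascicular change (vertical), day 5 minus day 2 on NAA, in log2 units; colours mark calls in 1 or both tissues, circles the 2 called interactions and the dashed line equal change. Points called in both tissues lie in the lower left and upper right, 26 and 57 of them, and both circled points lie above the line.

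AT3G05620, which encodes a protein of the pectin methylesterase family, had the larger of the called interactions. Its log2 values were 5.63, 6.91 and 7.56 in cambium at 5 days and 2.79, 2.53 and 2.44 in starch sheath at 2 days, against 2.57, 3.72 and 2.98 in stem at 5 days and 2.35, 2.71 and 2.57 in stem at 2 days. Every cambium array stood above every other array, while the stem values of the days overlapped. The other 3 groups had means below the median of 3.09, so the sizes of the changes and of the interaction depend on the floor. The gene rose in the interfascicular region by 4.11 ± 0.34 (SE), with a limma adjusted p of 1.54e-06. In stem the change was 0.54 ± 0.34 with an adjusted p of 0.769. The interaction was 3.57 ± 0.49, with a 95% interval of 2.55 to 4.59 and an adjusted p of 0.0158. These SEs pool the spread over all 8 groups of the series. The SD of the gene was 0.98 in cambium at 5 days and 0.18 in starch sheath at 2 days, so its spread in cambium is understated.

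Seen by day, AT3G05620 was higher in cambium than in stem by 3.62 at 5 days (adjusted p 6.45e-05), whereas the sheath-to-stem difference at 2 days was 0.05 (adjusted p 1). On the 12 arrays outside the contrast it lay between 2.43 and 3.17, below every cambium array; these include starch sheath kept 5 days on MS medium, with 2.44, 2.67 and 2.72. The interaction was called in 18 of 23 alternatives, with adjusted p between 5.22e-05 and 0.209. It lost its call without replicate 2 of starch sheath at 2 days (0.0759), without its replicate 3 (0.0853), without replicate 2 of cambium at 5 days (0.0878), in a fit of the 12 arrays alone (0.204), and in that fit with the replicate number as a block (0.209).

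The other called interaction belonged to probe set 245725_at, for which the gene table used here lists no gene; it is given because it is 1 of only 2, not by the rule for named genes. It measured 7.36, 7.54 and 7.49 in cambium at 5 days and 3.12, 2.90 and 2.65 in starch sheath at 2 days, against 3.55, 4.96 and 4.93 in stem at 5 days and 2.69, 2.75 and 2.83 in stem at 2 days. Here the days did not overlap in either tissue, and the cambium arrays were the highest of all. Most arrays at 2 days lay below the median of 3.09, so the sizes of the changes depend on the floor. The probe set rose in both tissues, by 4.57 ± 0.30 in the interfascicular region (adjusted p 5.34e-08) and by 1.72 ± 0.30 in stem (adjusted p 0.00475). The interaction was 2.85 ± 0.42, with a 95% interval of 1.97 to 3.72 and an adjusted p of 0.0213. It was called in 15 of 23 alternatives and in 7 of 12 with an array left out. The call was lost without replicate 2 or 3 of starch sheath at 2 days, replicate 1 or 2 of stem at 2 days, or replicate 2 of cambium at 5 days, with adjusted p of 0.0554 to 0.118, and was also lost with only the 12 arrays (0.169), with the replicate number as a block (0.058), and with that block on the 12 arrays (0.217).

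**Figure D2:**
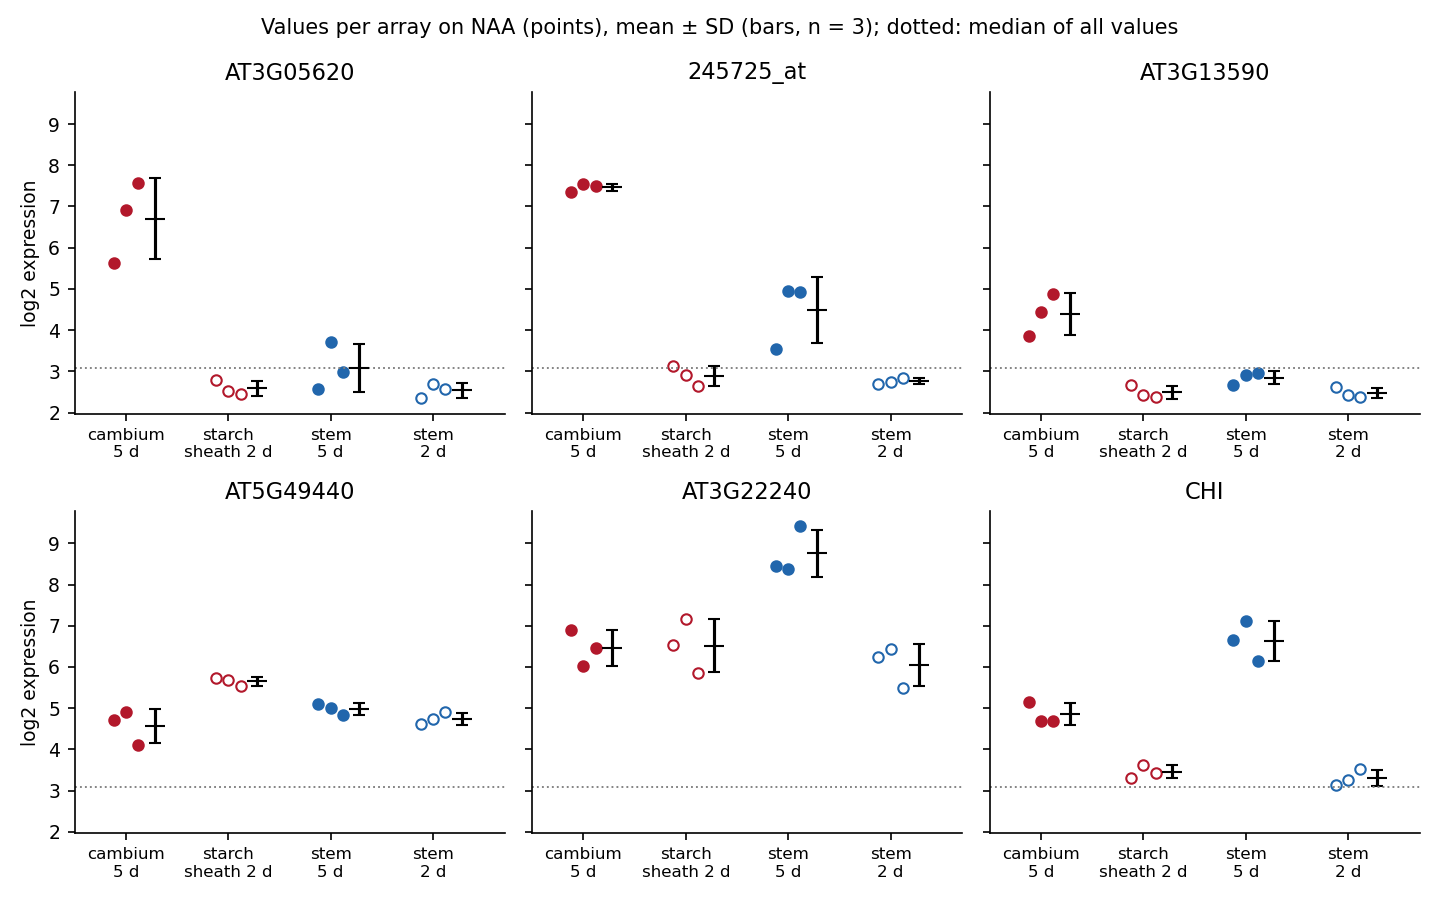
Log2 expression per array (points; red interfascicular, blue stem; filled 5 days, open 2 days) with mean ± SD beside them (n = 3) for the 2 probe sets with a called interaction and 4 named genes without one, in the order cambium 5 days, starch sheath 2 days, stem 5 days, stem 2 days; the dotted line is the median of all values, 3.09. AT3G05620 and 245725_at are high on the 3 cambium arrays, and CHI is highest on the 3 arrays of stem at 5 days.

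Besides AT3G05620, 11 genes were named as the positive interactions of smallest p, and none of them passed, with adjusted p up to 0.518 and interactions of 1.08 and more. Of all 12, 10 were called as a rise in the interfascicular region and not in stem, and the other 2 as a fall in stem and not in the interfascicular region. The cambium-to-stem difference at 5 days was called for 9 of the 12 and the sheath-to-stem difference at 2 days for 1, where the background was 0.356% and 0.246% of all probe sets. A rise in the interfascicular region was called for 1.19% of all probe sets and a fall in stem for 0.339%. Since the 12 were picked by their interaction, these counts describe them and test nothing.

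AT3G13590, a member of the cysteine and histidine-rich C1 domain family, came nearest to passing. It stood at 3.85, 4.43 and 4.88 in cambium at 5 days and 2.67, 2.44 and 2.37 in starch sheath at 2 days, against 2.66, 2.90 and 2.97 in stem at 5 days and 2.61, 2.42 and 2.38 in stem at 2 days. The cambium arrays lay above all others, and the days were also apart in stem, by less. It rose in the interfascicular region by 1.90 (adjusted p 6.86e-06), the stem change was 0.38 (adjusted p 0.582), and the interaction was 1.52 ± 0.26 with an adjusted p of 0.061. This interaction was called in 5 of 23 alternatives, 2 of them among the 12 with an array left out. Over the alternatives its limma adjusted p lay between 0.000531 and 0.47.

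AT5G42720, a glycosyl hydrolase of family 17, the family of plant beta-1,3-glucanases, measured 4.63, 6.85 and 6.50 in cambium at 5 days and 2.84, 2.79 and 2.54 in starch sheath at 2 days, against 2.98, 4.12 and 3.27 in stem at 5 days and 2.63, 2.48 and 2.47 in stem at 2 days. All cambium values exceeded all others, and the stem values of the days did not overlap. It rose in the interfascicular region by 3.27 (adjusted p 0.000215), with an interaction of 2.34 ± 0.58 (adjusted p 0.518). AT3G15800, of the same family, rose there by 1.60 (adjusted p 0.00109), to 4.01, 4.28 and 5.26 in cambium at 5 days, against 3.13, 2.85 and 2.77 in starch sheath at 2 days. The thaumatin-like AT5G02140 rose there by 1.17 (adjusted p 0.000516) and measured 0.07 as its change in stem, and its interaction was 1.10 ± 0.23 (adjusted p 0.251).

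AT3G25855, of a heavy-metal-associated copper transport family, rose in the interfascicular region by 1.53 (adjusted p 0.0002) and had an interaction of 1.26 ± 0.27 (adjusted p 0.251). AT4G14020 rose there by 2.17 (adjusted p 8.86e-05), with an interaction of 1.61 ± 0.35 (adjusted p 0.306). The AWPM-19-like membrane protein gene AT5G18970 and the leucine-rich repeat receptor kinase gene AT5G63710 rose by 1.60 and 1.17, with interactions of 1.32 and 1.16 (adjusted p 0.419 each). The RING zinc finger gene AT1G68070 rose by 0.88 (adjusted p 0.0138), a call that did not hold without replicate 1 or 3 of starch sheath at 2 days or replicate 2 or 3 of cambium at 5 days. The interfascicular calls of the other genes in this group held with each of the 12 arrays left out.

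The 2 genes of this group that fell in stem were AT1G53035 and AT4G25150. AT1G53035 measured 4.11, 4.61 and 4.02 in cambium at 5 days and 4.53, 4.10 and 4.68 in starch sheath at 2 days, against 3.86, 3.94 and 4.37 in stem at 5 days and 6.08, 5.70 and 5.50 in stem at 2 days. The stem arrays at 2 days stood above the other 9, which overlapped. It fell by 1.71 in stem (adjusted p 0.00174), and the interaction was 1.52 ± 0.37 (adjusted p 0.501). AT4G25150, an acid phosphatase of the haloacid dehalogenase superfamily, fell by 0.99 in stem (adjusted p 0.0269), a call lost without replicate 1 or 2 of stem at 2 days or any replicate of stem at 5 days (adjusted p 0.0646 to 0.135).

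In the negative direction no interaction passed in limma, against 204 at an unadjusted p under 0.05. The 12 negative interactions named for their small p had adjusted p of 0.164 to 0.729 and values between -3.43 and -0.73. Of these, 7 were called as a rise in stem and not in the interfascicular region, 3 as a fall in the interfascicular region and not in stem, 1 as a rise in both, and 1 in neither. The tissue difference was called at 5 days for 3 and at 2 days for 3. Shares over all probe sets were 0.519% for a rise in stem and 0.835% for a fall in the interfascicular region. For the tissue difference they were 0.356% at 5 days and 0.246% at 2 days. These 12 too were picked by their interaction, so the counts describe them and test nothing.

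CHI, which encodes a chitinase, was the one that rose in both tissues. It measured 5.16, 4.70 and 4.70 in cambium at 5 days and 3.31, 3.62 and 3.44 in starch sheath at 2 days, against 6.65, 7.12 and 6.15 in stem at 5 days and 3.15, 3.26 and 3.52 in stem at 2 days. The days did not overlap in either tissue, and stem at 5 days was the highest group. It rose by 1.40 ± 0.31 in the interfascicular region (adjusted p 0.0203) and by 3.33 ± 0.31 in stem (adjusted p 4.69e-06), and the interaction was -1.94 ± 0.43 (adjusted p 0.321). The interfascicular call was lost without replicate 1 or 3 of starch sheath at 2 days or replicate 1 of cambium at 5 days, with adjusted p of 0.0718 to 0.0843.

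AT3G22240 showed the stem-side pattern without an interfascicular change. It measured 6.89, 6.03 and 6.46 in cambium at 5 days and 6.53, 7.16 and 5.86 in starch sheath at 2 days, against 8.46, 8.38 and 9.42 in stem at 5 days and 6.24, 6.45 and 5.48 in stem at 2 days. Stem at 5 days was above all other arrays, and the interfascicular days overlapped. It rose in stem by 2.70 (adjusted p 0.0016), the interfascicular change was -0.06, and the interaction was -2.76 ± 0.58 (adjusted p 0.251).

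The osmotin-like gene OSM34, of the thaumatin family that includes antifungal proteins, measured 7.46, 6.07 and 6.57 in cambium at 5 days and 5.93, 7.39 and 6.06 in starch sheath at 2 days, against 8.98, 7.28 and 8.16 in stem at 5 days and 5.41, 6.22 and 5.08 in stem at 2 days. The interfascicular days overlapped and the stem days did not. It rose in stem by 2.57 (adjusted p 0.00748), and the interaction was -2.33 ± 0.66 (adjusted p 0.729). The stem call was just lost without replicate 3 of stem at 2 days or replicate 1 of stem at 5 days, with adjusted p of 0.0517 and 0.0518.

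Of the other stem-side genes, AT5G52760, of the copper transport family, rose in stem by 2.33 (adjusted p 0.00148) with an interaction of -2.25 ± 0.50 (adjusted p 0.309). The B12D-like gene AT3G29970 rose there by 1.81 (adjusted p 7.79e-05) with an interaction of -1.30 ± 0.29 (adjusted p 0.334). AT5G55450, of the lipid-transfer protein family, and UGT76B1, a glucosyltransferase that acts on defence-related hydroxy acids, rose there by 1.34 and 1.06 with interactions of -0.91 and -0.73. These 4 stem calls held with each of the 12 arrays left out. That of the aldehyde reductase gene AT3G04000, a rise by 1.80 (adjusted p 0.0116), was lost without replicate 1 of stem at 2 days or replicate 2 or 3 of stem at 5 days. For AT3G29970, AT5G55450 and UGT76B1, 3 of the 4 group means lay below the median of 3.09. The sizes of their changes and interactions depend on the floor.

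AT5G49440 had the smallest p of the negative interactions. It measured 4.72, 4.90 and 4.10 in cambium at 5 days and 5.74, 5.68 and 5.53 in starch sheath at 2 days, against 5.10, 5.00 and 4.83 in stem at 5 days and 4.61, 4.73 and 4.90 in stem at 2 days. The starch sheath arrays were the highest, and the stem days overlapped. It fell by 1.08 in the interfascicular region (adjusted p 0.00224), the stem change was 0.23, and the interaction was -1.31 ± 0.25 (adjusted p 0.164). AT2G17240 fell there by 1.17 (adjusted p 0.0118), with an interaction of -1.22 (adjusted p 0.715); its call was lost without replicate 1 or 3 of starch sheath at 2 days or replicate 2 or 3 of cambium at 5 days.

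AT1G14130, a dioxygenase that oxidises and so inactivates auxin, also belonged to this group. Its values were 3.91, 3.40 and 3.62 in cambium at 5 days and 4.35, 4.67 and 4.05 in starch sheath at 2 days, against 3.86, 3.45 and 3.60 in stem at 5 days and 3.39, 3.57 and 3.38 in stem at 2 days. The starch sheath arrays lay above the other 9. It fell by 0.71 in the interfascicular region (adjusted p 0.035), the interaction was -0.91 ± 0.24 (adjusted p 0.641), and the sheath-to-stem difference at 2 days was 0.91 (adjusted p 0.0248). The interfascicular call was lost without replicate 1 or 2 of starch sheath at 2 days or replicate 2 or 3 of cambium at 5 days.

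The largest negative value of the named genes was that of AT5G22580, a stress-responsive A/B barrel domain gene, and it was also among the least certain. It measured 5.75, 5.07 and 4.65 in cambium at 5 days and 7.36, 7.42 and 5.94 in starch sheath at 2 days, against 4.76, 6.14 and 6.70 in stem at 5 days and 4.51, 4.66 and 3.37 in stem at 2 days. The days did not overlap in either tissue, lower at 5 days in the interfascicular region and higher in stem, but neither change was called. The interaction was -3.43 ± 0.92, with a 95% interval of -5.36 to -1.50 and an adjusted p of 0.647.

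**Figure D3:**
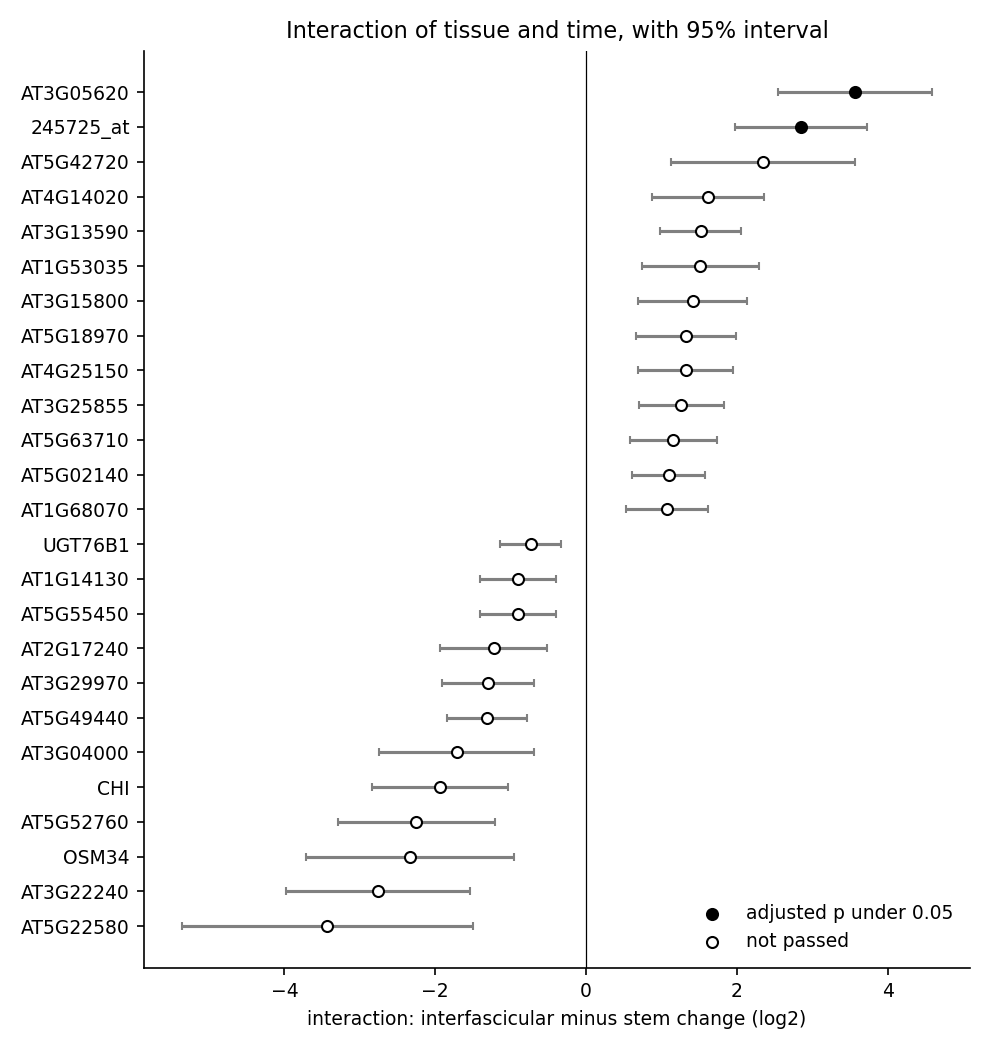
Interaction (interfascicular minus stem change, log2) of the 24 genes named for their interaction and of 245725_at, with 95% intervals from limma; filled points have an adjusted p under 0.05. The 2 filled points, at 3.57 and 2.85, lie at the top, and the intervals are single-gene intervals not widened for the number of probe sets tested.

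Of the 30 fixed genes, only AT3G05620 had a called interaction, and 8 had an unadjusted p under 0.05 in limma. Among those without a call were LHW, GH9B7, AT1G59740, AT5G05600, AT3G51280, 3xHMG-box1 and 3xHMG-box2, whose values are not given here. The largest estimate was that of BGLU33, a beta-glucosidase family gene. It measured 9.08, 6.17 and 8.40 in cambium at 5 days and 2.59, 3.54 and 2.29 in starch sheath at 2 days, against 2.82, 2.86 and 2.82 in stem at 5 days and 2.37, 2.43 and 2.33 in stem at 2 days. All cambium arrays stood above the others, with a wide spread among them. BGLU33 rose in the interfascicular region by 5.07 ± 0.88 (adjusted p 0.00315), and the interaction was 4.62 ± 1.24, with a 95% interval of 2.02 to 7.22 and an adjusted p of 0.647. An untreated stem array, replicate 1, outside the contrast stood at 8.05, so the gene was also high on an array without any culture. The beta-glucosidase gene BGLU44 fell in the interfascicular region by 3.73 (adjusted p 0.017), a call lost without replicate 3 of starch sheath at 2 days or replicate 3 of cambium at 5 days. Its stem change was -2.65 (adjusted p 0.178) and its interaction -1.08.

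TET5, a tetraspanin gene, measured 4.73, 6.18 and 4.86 in cambium at 5 days and 3.40, 3.02 and 2.79 in starch sheath at 2 days, against 2.94, 3.62 and 3.74 in stem at 5 days and 2.69, 2.98 and 2.91 in stem at 2 days. The cambium arrays were above all others and the stem days overlapped. It rose in the interfascicular region by 2.19 (adjusted p 0.00066), with an interaction of 1.62 ± 0.45 (adjusted p 0.715). The flavin monooxygenase family gene FMO rose in both tissues, by 3.04 in the interfascicular region and 2.68 in stem, and its interaction was 0.36.

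The peptide genes CLE41 and CLE44 encode precursors of TDIF, the signal from phloem that keeps cambium cells dividing and holds back xylem formation. CLE44 measured 6.09, 5.51 and 5.79 in cambium at 5 days and 4.81, 6.06 and 4.10 in starch sheath at 2 days, against 6.80, 6.89 and 8.62 in stem at 5 days and 4.48, 5.51 and 3.65 in stem at 2 days. The interfascicular days overlapped and the stem days did not. It rose in stem by 2.89 (adjusted p 0.0357), the interfascicular change was 0.81 (adjusted p 0.795), and the interaction was -2.08 ± 0.91 (adjusted p 1). CLE41 rose in stem by 1.85 (adjusted p 0.0259), against an interfascicular change of 0.88 (adjusted p 0.368), with an interaction of -0.97. Both stem calls were lost without replicate 1 or 3 of stem at 2 days or replicate 2 or 3 of stem at 5 days, with adjusted p of 0.0646 to 0.221 for CLE44 and 0.0864 to 0.174 for CLE41. The phloem list, whose mean was higher at 5 days in both tissues, counts both peptide genes among its 7 members, and no other member of it was called. What phloem cells in the captured tissue add to this change was not tested.

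Of the other cambium and vascular regulators none was called in either tissue or as an interaction in limma. PHV, a class III homeodomain leucine zipper gene of vascular patterning, had the positive value of smallest p: it measured 6.35, 7.97 and 6.07 in cambium at 5 days and 5.14, 6.73 and 5.32 in starch sheath at 2 days, against 6.09, 6.56 and 6.44 in stem at 5 days and 6.51, 7.15 and 5.99 in stem at 2 days. The days overlapped in both tissues. The interaction was 1.25 ± 0.61 (unadjusted p 0.054, adjusted p 1). The receptor-like kinase gene MOL1, which restrains cambium activity, had an interaction of 1.16 ± 0.74. Over the 8 regulators the median change was 0.65 in the interfascicular region and 0.08 in stem, where the medians of all probe sets were both 0.03. The interfascicular median was 0.40 without replicate 2 of cambium at 5 days, and 1 of the 8 was called without its replicate 3. The stem median lay between 0.00 and 0.14 with an array left out, lowest without replicate 2 of stem at 5 days, and was -0.06 without dim probe sets.

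Auxin response genes had no called interaction. GH3.3, whose enzyme joins auxin to amino acids, measured 8.33, 5.95 and 6.58 in cambium at 5 days and 8.37, 9.62 and 6.53 in starch sheath at 2 days, against 7.97, 7.52 and 8.07 in stem at 5 days and 5.93, 8.53 and 4.56 in stem at 2 days. The days overlapped in both tissues, and the replicates at 2 days differed by several log2 units. The interaction was -2.73 ± 1.17 (unadjusted p 0.031, adjusted p 1). Of 9 measured conjugation and oxidation genes, AT1G14130 alone was called in the interfascicular region and none in stem, and 7 had an interaction below 0. None of 7 Aux/IAA repressor genes was called in either tissue, and IAA29 among them had an interaction of -1.21. At an unadjusted p under 0.05 in limma, 2 of the 7 were lower at 5 days in the interfascicular region and 1 was higher in stem. Of all 22746 probe sets, 1457 were lower at that p in the interfascicular region and 809 higher in stem. None of 6 other early auxin genes was called, nor did any reach an unadjusted p under 0.05. HAT2, an auxin-induced homeobox gene, and ARL, a growth gene related to ARGOS, had interactions of -0.33 and 0.31.

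The low-oxygen genes made up the list with the most shared changes. Of 22 measured, 13 rose in the interfascicular region and 12 in stem, 10 of them in both, and none fell; of all probe sets 1.19% rose in the interfascicular region, 0.519% rose in stem, and 83 of 22746 were called in both. The list's medians were 2.04 in the interfascicular region, 1.56 in stem and -0.08 for the interaction, against a median of 0.00 over all probe sets. The interaction median took either sign with an array left out, between -0.26 without replicate 2 and 0.29 without replicate 3 of cambium at 5 days. No interaction in the list was called; 2 positive and 3 negative ones had an unadjusted p under 0.05. With an array left out, between 11 and 14 rose in the interfascicular region and between 8 and 14 in stem; the stem count was 8 without replicate 3 of stem at 5 days and, with only the 12 arrays in the fit, 7.

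AT5G10040, a member of the plant core response to low oxygen, had the largest rise of the list in both tissues. It measured 7.95, 7.43 and 7.69 in cambium at 5 days and 2.59, 2.43 and 2.39 in starch sheath at 2 days, against 8.83, 8.51 and 9.91 in stem at 5 days and 2.58, 2.60 and 2.88 in stem at 2 days. The days stood far apart in both tissues, the stem arrays at 5 days were the highest, and the 12 arrays outside the contrast lay between 2.41 and 2.91. It rose by 5.22 in the interfascicular region (adjusted p 3.87e-10) and by 6.40 in stem (adjusted p 9.96e-12). Both 2-day groups lay below the median of 3.09, as did all arrays outside the contrast, so the sizes of these rises and of their difference depend on the floor. The interaction was -1.18 ± 0.35, with an unadjusted p of 0.0031 and an adjusted p of 0.795.

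Other members of the list, named after their values were seen, rose in both tissues. AT4G10270, a wound-responsive family gene, rose by 4.59 in the interfascicular region and 4.02 in stem, AT1G33055 by 3.86 and 2.75, AT4G39675 by 3.15 and 4.12, and AT4G24110 by 2.65 and 2.91, interfascicular values first. AT5G42200, a RING finger gene, rose by 2.09 in the interfascicular region and 1.29 in stem, with an unadjusted interaction p of 0.0071. AT3G27220, a kelch-repeat family gene, was called in the interfascicular region and not in stem, with a rise of 2.30 (adjusted p 0.000338) against a stem change of 1.06 (adjusted p 0.143), and the unadjusted p of its interaction was 0.01 and the adjusted p 1. The calmodulin-like CML38 and AT2G17850 were called in stem only, with rises of 1.33 and 2.51 and interactions of -0.82 and -1.63, which did not pass; the CML38 call held with 8 of the 12 arrays left out in turn. PDC2, a pyruvate decarboxylase gene of fermentation, had changes of -0.01 in the interfascicular region and -0.02 in stem.

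**Figure D4:**
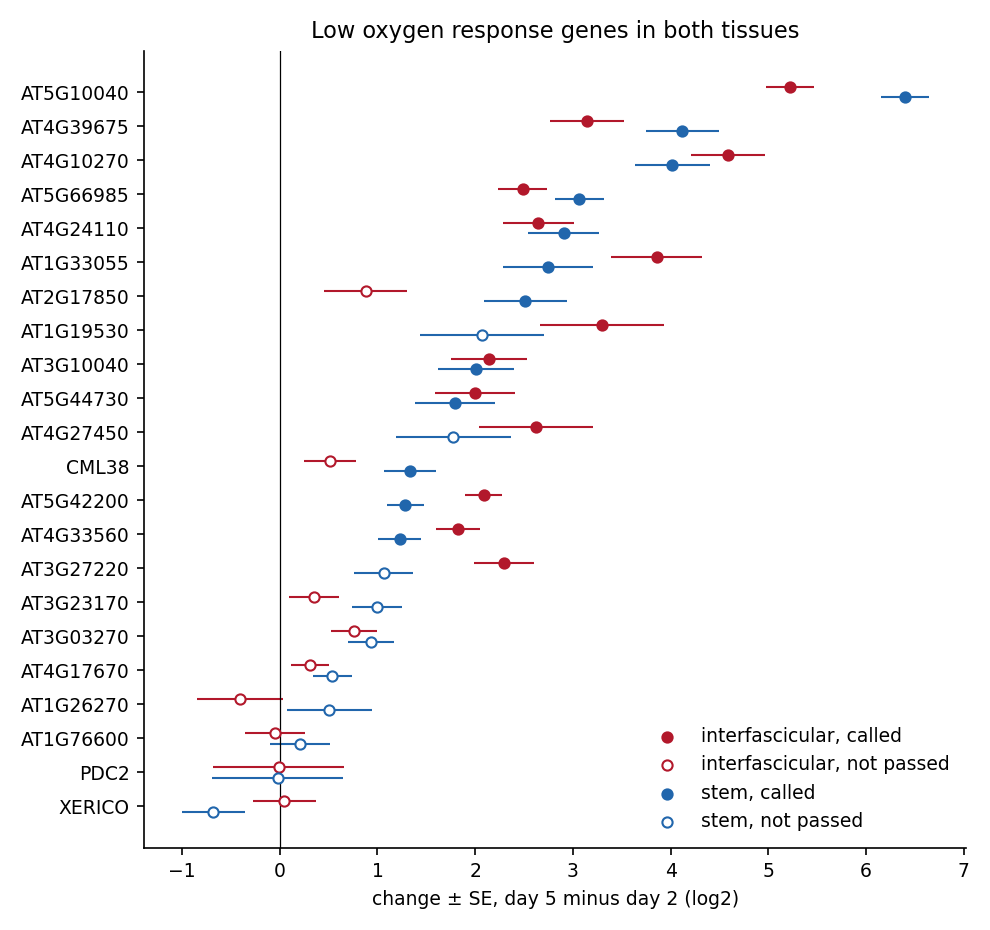
Change between day 5 and day 2 on NAA (log2, ± SE from limma) of the 22 measured low-oxygen response genes in the interfascicular region (red) and in stem (blue), sorted by the stem change; filled points are called. Most filled points come in pairs, 10 genes being called in both tissues, and none lies below 0.

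Nuclear genes of photosynthesis went the other way, again in both tissues. All 13 measured had a change below 0 in each tissue; 5 of them fell in the interfascicular region and 3 in stem, and the medians were -1.36 and -1.37, with a median interaction of -0.16. Of all probe sets, 0.835% fell in the interfascicular region and 0.339% in stem. The median interaction lay between -0.42 and 0.08 with an array left out, above 0 without replicate 3 of cambium at 5 days, and was 0.17 with array weights. RCA, the activase of Rubisco, measured 6.18, 5.28 and 5.44 in cambium at 5 days and 7.76, 7.22 and 7.99 in starch sheath at 2 days, against 6.03, 5.19 and 5.68 in stem at 5 days and 7.46, 7.59 and 7.41 in stem at 2 days. The days were apart in both tissues and the tissues overlapped at each day. It fell by 2.03 in the interfascicular region and 1.86 in stem, and its interaction was -0.17. The Calvin cycle gene SBPASE fell by 1.76 and 1.70, and the ATP synthase subunit gene ATPC1 by 1.92 and 1.53, in the same order. No interaction of the list had an unadjusted p under 0.05 in limma. The interfascicular count was 2 without replicate 3 of starch sheath at 2 days and 3 without replicate 2 of cambium at 5 days, and the stem count was 0 without replicate 2 of stem at 5 days and 1 without replicate 1 of stem at 2 days. Plastid-encoded genes moved less: of 45, 1 fell in each tissue, psbI in the interfascicular region and atpE in stem, with medians of -0.22 and -0.17; the psbI call held with 8 and the atpE call with 12 of the 12 arrays left out in turn.

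Genes of cytosolic ribosomes had medians below 0 with few calls. For the large subunit, 2 of 85 fell in the interfascicular region and 1 in stem, with median changes of -0.66 and -0.48, where 0.835% and 0.339% of all probe sets fell. Neither interfascicular call, of AT3G55170 and AT2G37600, held when any 1 replicate of starch sheath at 2 days, or replicate 2 or 3 of cambium at 5 days, was left out, and the stem call, of AT4G25890, held with 2 of the 12 arrays left out in turn. For the small subunit, 2 of 49 fell in the interfascicular region and none in stem, with medians of -0.62 and -0.36; the call of AT3G52580 held with each of the 12 arrays left out and that of AT3G57490 with 7. At an unadjusted p under 0.05 in limma, 25 large-subunit and 17 small-subunit genes were lower at 5 days in the interfascicular region, 15 and 6 in stem, and none was higher in either tissue. Of all 22746 probe sets, 1457 were lower at that p in the interfascicular region and 1176 in stem. The interaction was below 0 for 60 of 85 large-subunit and 35 of 49 small-subunit genes, with medians of -0.13 and -0.18; none was called, and 1 and 3 had an unadjusted p under 0.05, all below 0. Ribosomal protein genes occur in near-identical copies, whose probe sets may read more than their own gene.

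Among pectin genes, 4 of 64 measured rose in the interfascicular region and none was called in stem. In stem 4 were higher and 1 lower at an unadjusted p under 0.05 in limma, against 809 and 1176 of all 22746 probe sets. The shares of all probe sets that rose were 1.19% in the interfascicular region and 0.519% in stem. Beside AT3G05620 the pectin genes that rose were AT3G53190, a pectate lyase family gene, by 3.24, AT3G49220 by 1.29 and AT3G43270 by 0.92. The last 2 are pectin methylesterase family genes named after their values were seen. The list's median change was 0.08 in the interfascicular region and 0.09 in stem, near the 0.03 of all probe sets. AT3G53190 had a stem change of 2.28 (adjusted p 0.297) and an interaction of 0.96 ± 1.13, and its interfascicular call held with 6 of the 12 arrays left out in turn. The interfascicular count was 1 without replicate 3 of starch sheath at 2 days and 2 without its replicate 1 or without replicate 2 of cambium at 5 days.

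Of 19 thaumatin-like genes, AT5G02140, AT2G28790 and ATLP-1 rose in the interfascicular region and OSM34 rose in stem, where 1.19% and 0.519% of all probe sets rose. ATLP-1 measured 5.28, 8.78 and 7.42 in cambium at 5 days and 2.76, 5.06 and 2.78 in starch sheath at 2 days, against 2.93, 3.91 and 3.82 in stem at 5 days and 2.35, 2.68 and 2.57 in stem at 2 days. Outside the contrast, replicate 1 of starch sheath after 2 days on MS medium stood at 5.19 and replicate 1 of untreated stem at 5.14. Both are near the lowest cambium array. For ATLP-1 the days did not overlap in either tissue. It rose in the interfascicular region by 3.62 (adjusted p 0.0156), with an interaction of 2.60 ± 1.08 (adjusted p 1). No interaction of the family was called; 4 positive and 1 negative had an unadjusted p under 0.05, and 2 were called without replicate 1 of cambium at 5 days. The interfascicular count was 2 without replicate 1 or 3 of starch sheath at 2 days or replicate 2 or 3 of cambium at 5 days.

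Class III peroxidases, enzymes that cross-link or loosen wall polymers, rose in 3 of 54 in the interfascicular region and 4 of 54 in stem, where 1.19% and 0.519% of all probe sets rose. Prx37 rose in both, by 3.59 in the interfascicular region and 3.03 in stem, as did AT4G08780, by 1.80 and 1.15 in the same order. AT2G22420 was called in the interfascicular region only, with a rise of 1.30, and PRX52 and AT5G19890 in stem only, with rises of 2.98 and 0.81; these peroxidases were named after their values were seen. The list's median interaction was 0.01. With the 12 arrays left out in turn, the interfascicular calls of Prx37 and AT4G08780 held in 12 fits and that of AT2G22420 in 9. The stem calls of AT5G19890 and Prx37 held in 10 and 7 of them, and those of PRX52 and AT4G08780 in 2 each. Leaving out replicate 1 of stem at 2 days or replicate 2 of stem at 5 days left no stem call, leaving out replicate 3 of either stem group left 1, and leaving out replicate 2 of stem at 2 days, replicate 1 of stem at 5 days, replicate 2 of starch sheath at 2 days or replicate 3 of cambium at 5 days left 2. GDSL lipases, 58 measured, had 1 rise in the interfascicular region and 2 falls in stem, and the family 9 glycosyl hydrolases, which include endoglucanases, had 1 rise in 15 in the interfascicular region. A fall in stem was called for 0.339% of all probe sets. The GDSL calls were those of AT1G54020 in the interfascicular region, held with 8 of the 12 arrays left out in turn, and of AT1G29670 and AT3G16370 in stem, held with 12 and 1. The family 9 call, of GH9B6, held with 7. These genes too were named after their values were seen.

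Cell division genes had no called interaction. None of 25 mitosis genes was called in either tissue, and none had an interaction with an unadjusted p under 0.05 in limma. Of all 22746 probe sets, 1197 were higher and 1457 lower in the interfascicular region at an unadjusted p under 0.05 in limma. In stem these counts were 809 and 1176. Of the mitosis genes, 2 were higher and 1 lower at that p in the interfascicular region, and 3 were higher in stem. Their median change was 0.16 in the interfascicular region and 0.15 in stem, and their mean lay at 2.96 to 3.59 in cambium at 5 days and 2.93 to 3.39 in starch sheath at 2 days, against 2.81 to 3.08 in stem at 5 days and 2.77 to 2.84 in stem at 2 days. At 2 days the starch sheath means lay above the stem means, and at 5 days the ranges overlapped. The tissue difference at each day was not counted for this list. Many values of the mitosis genes are near or below the median of the arrays. A fall in the interfascicular region was called for 0.835% of all probe sets. Of 12 histone genes 1, AT2G28720, fell there (adjusted p 0.0423), a call that held with 4 of the 12 arrays left out in turn. None was called in stem, where 1 was lower at an unadjusted p under 0.05 in limma, and none of 6 S phase genes was called in either tissue, against 1 lower in the interfascicular region at that p.

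**Figure D5:**
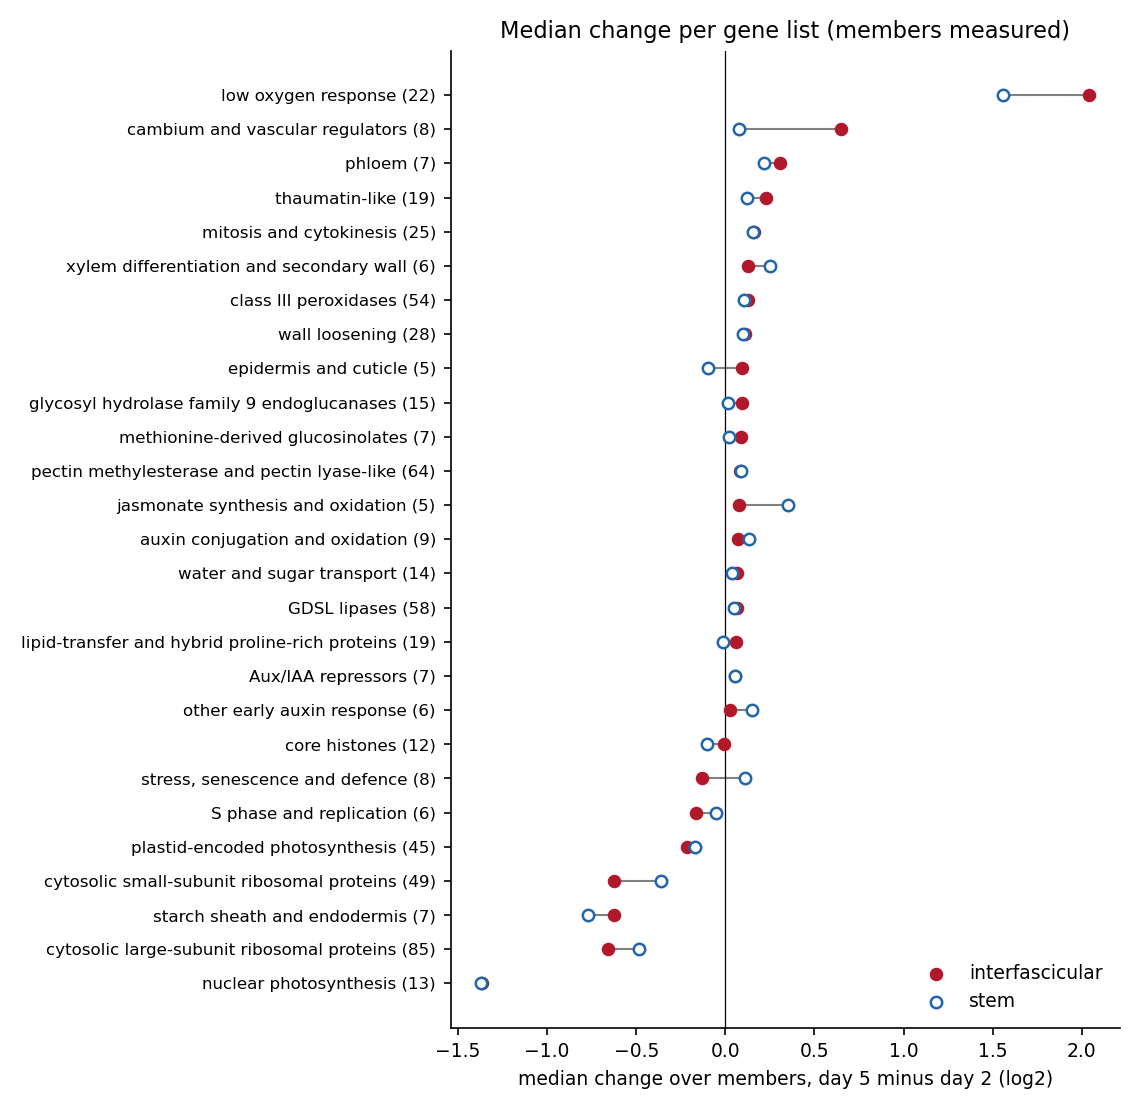
Median change between day 5 and day 2 on NAA (log2) over the measured members of each gene list of 5 or more, in the interfascicular region (filled) and in stem (open), joined by a line whose length is the difference of the medians. Low-oxygen genes stand at 2.04 and 1.56 and nuclear photosynthesis genes at -1.36 and -1.37, and most other lists lie within 1 unit of 0 in both tissues.

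The remaining lists had few or no calls. None of 7 starch sheath, 6 xylem, 5 epidermis, 5 jasmonate, 7 glucosinolate or 28 wall-loosening genes was called in either tissue, and none of these lists held an interaction with an unadjusted p under 0.05 in limma. Within a tissue, an unadjusted p under 0.05 was reached in the interfascicular region by 3 starch sheath genes, 1 epidermis gene and 3 wall-loosening genes, and in stem by 4 starch sheath genes, 1 epidermis, 1 jasmonate, 1 glucosinolate gene and 2 wall-loosening genes. Of all 22746 probe sets it was reached by 2654 in the interfascicular region and by 1985 in stem. The starch sheath genes had median changes of -0.62 in the interfascicular region and -0.77 in stem, and JKD, SBE2.2 and DPE1, a ground tissue zinc finger gene and a pair of starch enzyme genes, had interactions of -0.32, -0.19 and 0.32. Lipid-transfer and hybrid proline-rich protein genes had 1 rise in the interfascicular region and 1 fall in stem among 19, held with 6 and 7 of the 12 arrays left out in turn. Of all probe sets 1.19% rose in the interfascicular region and 0.339% fell in stem. Among 14 water and sugar transport genes 1 fell in stem, and of 8 stress and defence genes CHI alone was called. The transport call held with 6 of the 12 arrays left out in turn, but was lost without any 1 array of stem. For the genes with wide replicate spread the interaction could not be placed: GH9B13 had 0.09 ± 1.50 and the glucosinolate gene BCAT4 0.12 ± 1.45.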

How the data were processed

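The values analysed are the log2 expression values the authors deposited for ATH1 arrays, which the submitters' processing notes credit to RMA, without a version or settings; the table does not state the log base, taken as 2. Members and gene lists were chosen with earlier results of these data known. A linear model with 1 mean per group was fitted to all 24 arrays with limma 3.58.1 in R 4.3.3, and the contrasts were moderated with eBayes (16 residual and 2.55 prior degrees of freedom). Tests were two-sided, with Benjamini-Hochberg adjustment over 22746 probe sets, 64 controls left out, and a threshold of 0.05. The labels call the samples biological replicates. The p-values measure the spread between replicates pooled over all 8 groups of the series, of which 4 are compared. The SE of a gene can thus understate the spread in a group that varies more than the others. Having 3 arrays a group limits the precision. The steps were tested on simulated data.

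Of the probe sets in the table, 13513 had 1 gene in the platform annotation, 503 several and 8730 none; 13436 matched TAIR10.1. For the 152 genes with several probe sets, the one of highest mean was used. Named genes were the 12 interactions of largest size in each direction among those passing, filled up to 12 by smallest p where the highest group mean reached the median, up to 3 of each of 29 lists by smallest interaction p, and 30 fixed genes; genes named outside the rule are marked, and list members named because they were called were chosen after their values were seen. Each array was left out in turn; other alternatives were a fit of the 12 arrays, a replicate block, quantile and cyclic loess scaling, GAPDH ratio as covariate, array weights, a trended robust prior, removal of dim probe sets or of narrow arrays, and a 2-fold minimum. Replicate numbers are shared between groups. Same-numbered arrays correlated above 0.1 at every number for starch sheath and stem at 2 days (r 0.13, 0.51 and 0.33), the tissue difference at 2 days, and weakly for cambium at 5 days and stem at 2 days (0.11, 0.13 and 0.10), which no contrast sets directly against each other; over all pairs of groups r lay between -0.39 and 0.51.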

Additional observations from a re-analysis of the deposited data

Results flagged for a closer look

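Both called interactions are cases where the change between 2 and 5 days differed between the tissues by the test of the difference itself. For AT3G05620 the interfascicular change exceeded the stem change by 3.57 on the log2 scale (limma, adjusted p 0.0158), with 3 cambium arrays above the other 9. For 245725_at it did so by 2.85 (adjusted p 0.0213), on top of a rise in both tissues. The captured cell type changed with the day in the interfascicular region, so the day and the cell type cannot be told apart in either value. Neither call held in a fit of the 12 arrays alone (limma adjusted p 0.204 for AT3G05620 and 0.169 for 245725_at). Both were also lost without replicate 2 or 3 of starch sheath at 2 days, and without replicate 2 of cambium at 5 days.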

How the results depend on the processing

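In limma, no called interaction, interfascicular change or stem change of a named gene reversed its sign under any alternative; this was not counted for the other calls. The 2 called interactions became 1 with only the 12 arrays, 1 with the replicate block, and 0 with the block on the 12 arrays (1061 with unadjusted p under 0.05). With only the 12 arrays both of the 2 were lost (adjusted p 0.204 for AT3G05620 and 0.169 for 245725_at). The 1 call there was that of another named gene. The count was 5 each with cyclic loess, quantile scaling and the trended robust prior, and 49 with array weights. It was 7 without the 3 narrow untreated arrays and 0 to 22 with an array left out. The 460 interfascicular calls became 806 with the block on the 12 arrays, 1760 with array weights, 813 with the GAPDH covariate, 830 without the narrow arrays, and 197 to 474 with an array left out. The 195 stem calls became 358, 1106, 365 and 351 under those settings in the same order, and 98 to 239 with an array left out. With the block on the 12 arrays, array weights, the GAPDH covariate or without the narrow arrays, falls outnumbered rises in both tissues. The 81 calls between tissues at 5 days became 40 with only the 12 arrays, 42 with the block on them, 651 with array weights, 129 with the GAPDH covariate, and 25 to 125 with an array left out (cambium at 5 days: 125 without replicate 1 and 25 without replicate 2; stem at 5 days: 34, 52 and 30 without replicates 1, 2 and 3). The 56 calls at 2 days became 179 with array weights and 18 to 56 with an array left out (starch sheath at 2 days: 18 and 37 without replicates 2 and 3; stem at 2 days: 28 and 37 without replicates 1 and 2). The causes of these differences were not tested. With the replicate block on all arrays the counts were 453, 193, 72 and 41 for the interfascicular change, the stem change, and the tissue difference at 5 and at 2 days; of the groups set directly against each other, those at 2 days alone correlated above 0.1 at every number. With this block the call of 245725_at was lost (adjusted p 0.058) and that of AT3G05620 was kept (0.0228). The signal is not set against a background, so low levels have no detection limit here.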
